A study of Mus musculus with 117 samples.

Results

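Flow-through RNA was compared between 5 libraries labelled 2 d after spinal cord injury (SCI) and 4 libraries labelled uninjured, which are 9 of the 117 libraries of the series and were chosen by their titles. Flow-through is the RNA that stays in solution when HA-tagged ribosomes of astrocytes are pulled out of a spinal cord homogenate with antibody and beads. It therefore holds the RNA of neurons, oligodendrocytes, vessels, leukocytes and other cells, together with astrocyte RNA that was not captured. All mice of both groups carried the genotype labelled Aldh1l1-CreERT2 -RiboTag, in which tamoxifen lets cells with an active Aldh1l1 promoter tag their ribosomes, and all were labelled female. The study's methods describe C57BL/6 young adults, give no age for single mice, and describe the injury as a complete crush of the thoracic cord. The tissue block held the lesion and the cord just rostral and caudal of it, and blood had been cleared by perfusion with heparinized saline. The main question was which RNA outside the astrocyte pulldown was higher or lower 2 d after SCI. The same 5 libraries were then set against 4 flow-through libraries from 5 d after SCI, and their change was set against that of the 5 astrocyte libraries at 2 d and the 4 astrocyte libraries of uninjured mice.

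In the first days after a crush, neurons and their axons die or disconnect at the lesion, blood vessels leak, and platelets and clotting factors meet the tissue. Neutrophils and monocytes enter from the blood, monocytes become macrophages, and resident microglia change their expression and divide. These cells take up cell debris and myelin, while stromal and vascular cells start to lay down a provisional matrix. In such bulk samples, fewer cells of a type and less RNA per cell cannot be told apart, and every value is a share of a library whose cell makeup also changed.

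The sex-linked transcripts of the 2 d libraries went against their labels. Ddx3y, a Y-linked RNA helicase gene, had no counts in the 4 uninjured libraries and 28.6, 137.6, 48.3, 97.5 and 41.2 CPM (counts scaled to the size of each library) in 2 d libraries 1 to 5, at least 9100-fold higher against a floor of 3 counts over the group. Xist, the long RNA of the inactive X chromosome, was between 30.1 and 40.6 CPM in uninjured libraries and at most 0.438 CPM in 2 d libraries. Library 2 at 2 d had no counts of the Y-linked genes Kdm5d and Uty, while the other 2 d libraries had up to 449 and 187 counts and at least 41 counts of each. By Ddx3y and Xist, all 5 flow-through libraries labelled 2 d held the RNA pattern of males although labelled female, and all 4 uninjured libraries held that of females. Sex therefore cannot be told apart from injury in the main comparison. Between the males and females of the same series at 5 and 14 d after SCI, 50 of 18692 genes (0.267%) differed in flow-through RNA. Of these 50 genes, 4 belong to the gene lists used here, namely Hsd17b7, Itgam, Klf6 and Lifr. In the main comparison 35 of the 50 were called, against 53% of all genes tested. A further fit took 3 uninjured male flow-through libraries of another Cre line, mGfap-Cre-RiboTag, as controls. These male controls came from the study's postnatal series and were labelled P63, for the postnatal day, while the paper gives a higher age for the Aldh1l1 mice of the SCI series. They thus differed from the 2 d mice in Cre line and stated age as well as injury. The part that Cre line and age played in calls kept or lost with these controls was not tested. With them, 3937 of the 4697 genes called higher and 3674 of the 4674 called lower were called again in the same direction. The opposite direction was called for 2 genes. Of the 5 astrocyte libraries at 2 d, numbers 1, 4 and 5 held the male pattern and numbers 2 and 3 the female one, so for numbers 2 and 3 the flow-through and astrocyte libraries of 1 number differed in sex pattern.

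Depth and RNA content also differed between the groups. The 2 d libraries held 40710428 to 75175387 counted reads and the uninjured libraries 99521160 to 115137979. Counts were found for 15763 genes in 2 d library 2, 16404 in 2 d library 4, 17532 to 17934 in the other 2 d libraries and 19506 to 19818 in uninjured libraries. Mitochondrially encoded RNA took 1.09% to 2.65% of the reads at 2 d and 5.72% to 6.80% in uninjured cord. The 2 d libraries leaned towards short transcripts, with a median log2 fold change of 0.45 for the fifth of genes with the shortest exons and -0.52 for the fifth with the longest. The first principal component, 71.8% of the variance, separated the groups, and the second, 11.3%, set 2 d libraries 2 and 4 apart from the others, so results are also given without these 2 libraries where that matters. The part that depth, RNA size and sex played in the results was not tested beyond the values given here.

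Of 17682 genes tested, 4697 (26.6%) were higher and 4674 (26.4%) were lower in the 2 d libraries at a false discovery rate (FDR) under 0.01, by the quasi-likelihood test of edgeR with p-values adjusted after Benjamini and Hochberg (53% in either direction). The median log2 fold change of all genes tested was -0.12. Among the called genes, 2061 were at least 4-fold higher and 2276 at least 4-fold lower, and 283 and 520 were at least 32-fold higher or lower. The values of the 2 groups did not overlap for 11337 genes (64.1%), so a gene without overlap was the usual case in this comparison. Without 2 d libraries 2 and 4, 5323 genes were higher and 5832 lower.

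The marker genes of cell types moved in opposite directions (the plot of summed marker CPM). Most markers of neurons and oligodendrocytes fell, and most markers of myeloid cells and fibroblasts rose. The 12 neuron markers summed to 11519 to 13331 CPM in uninjured libraries and to 672.6 to 1774 CPM at 2 d, 11.5-fold lower in the mean, and 11 of the 12 fell. Of the 12 oligodendrocyte markers 11 fell, with a smaller difference of the sums, from 29022 to 32926 CPM down to 11117 to 18862 CPM. The 12 pan-myeloid markers summed to 311.2 to 346.9 CPM in uninjured libraries and 3431 to 4951 CPM at 2 d, 12.7-fold higher, and 11 rose. The markers of monocyte-derived macrophages rose in 10 of 12 cases, and their sum went from 55.6 to 133.6 CPM up to 945.6 to 1551 CPM. For none of these 4 lists did the sums of the groups overlap.

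**Figure D1:**
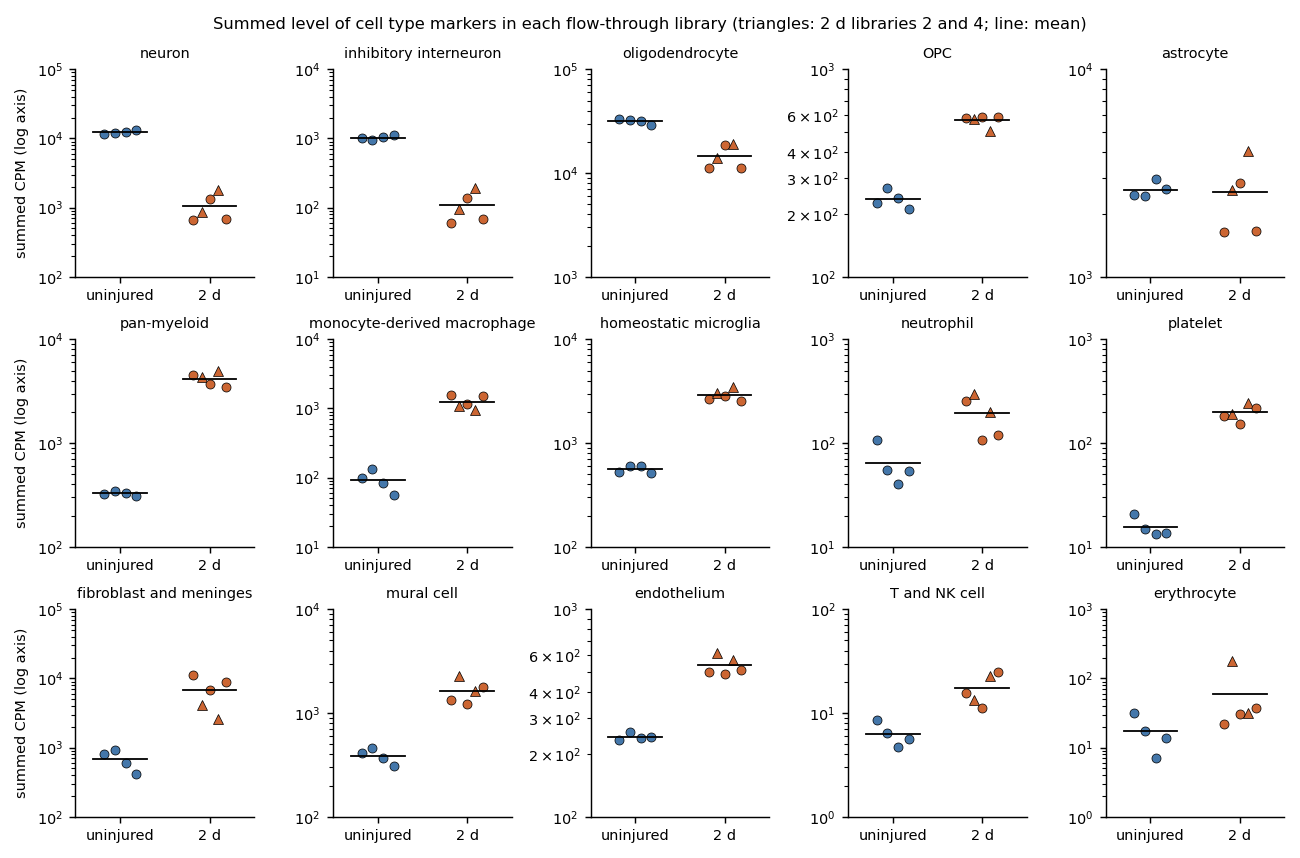
Summed CPM (log axis) of 15 lists of cell type markers in each of the 4 uninjured and 5 2 d flow-through libraries. Each point is 1 library, triangles are 2 d libraries 2 and 4, and lines are group means; neuron markers lie between 672.6 and 1774 CPM at 2 d against at least 11519 CPM in uninjured cord, and pan-myeloid markers between 3431 and 4951 CPM against at most 346.9 CPM.

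Other blood cells were less evident in flow-through. Of 13 neutrophil markers tested, Lcn2, Csf3r, Cxcr2 and Mmp8 rose, but the sum reached only 107.5 to 298 CPM at 2 d, against 40.5 to 106.4 CPM in uninjured cord. S100a9, an abundant neutrophil calcium-binding protein, had 27.1, 9.08, 5.78 and 10.3 CPM in uninjured libraries 1 to 4 and 87.8, 77.0, 18, 52.6 and 24.1 CPM at 2 d, with overlapping groups and FDR 0.011, while the DESeq2 test gave 0.00041. Platelet markers rose in 3 of 7 cases (Pf4, Itga2b and Treml1), and Pf4, a chemokine of platelet granules that macrophages can also express, went from 3.09 to 5.13 CPM up to 135.7 to 218.0 CPM (log2 fold change 5.44 ± 0.25, SE). Of 8 T and NK cell markers tested, Lck and Cd4 rose, with sums of 11.1 to 24.8 CPM at 2 d against 4.70 to 8.60 CPM. The shares called higher among neutrophil markers and among T and NK cell markers were near that of all genes tested, 26.6%. None of 6 erythrocyte markers passed the test, and Hba-a2, an alpha-globin gene with a near-identical copy, reached 163.7 CPM in 2 d library 2 with FDR 0.015. Of 5 B and plasma cell markers tested only Ighm, the heavy chain of IgM, was called. Ighm fell from 133.7, 113.5, 120.5 and 115.1 CPM to 6.34, 1.30, 4.22, 4.23 and 7.50 CPM, while the defining B cell genes of the list did not pass the test. Of 3 mast cell markers tested, only Kit, which other cells of the cord also express, was called, and it was lower.

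Glial and vessel-wall markers were mixed. Of 12 astrocyte markers, Sox9 and Aldh1l1 were higher and Slc4a4 and Aldoc lower, and their sums overlapped, at 2442 to 2969 CPM in uninjured cord and 1644 to 4028 CPM at 2 d. Sox9, a transcription factor of astrocytes and progenitors, had 13.2, 11.4, 13.8 and 11.3 CPM in uninjured libraries and 50.1, 222.6, 101.7, 174.6 and 70.9 CPM at 2 d (3.32 ± 0.43, FDR 5.5e-05). Gfap, the intermediate filament of reactive astrocytes, overlapped between groups, with 999.2 to 1355 CPM in uninjured cord and 1031 to 2960 CPM at 2 d (0.65, FDR 0.081). Ependymal markers were lower in 2 of 8 cases, Foxj1 and Tmem212, and of 8 Schwann cell markers Egr2 was higher and Prx lower. Of all genes tested 26.6% were higher and 26.4% lower, and the ependymal and Schwann cell lists had no larger share either way. Without 2 d libraries 2 and 4, 5 astrocyte, 4 ependymal and 3 Schwann cell markers were lower.

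The list with the highest median was that of phagocytes that handle lipid and debris. Of 26 phagocytosis and foam cell genes 24 rose and none fell, the median log2 fold change was 4.95 against -0.12 for all genes, and the summed CPM went from 3578 to 3768 up to 69469 to 92528, 21.1-fold higher. Spp1, the secreted phosphoprotein osteopontin, had 146.8, 147.0, 160.3 and 167.2 CPM in uninjured libraries 1 to 4 and 21178, 12285, 14265, 16339 and 17520 CPM in 2 d libraries 1 to 5 (log2 fold change 6.72 ± 0.24, SE, FDR 4.8e-08). Every 2 d library was far above every uninjured one. Lgals3, the lectin galectin-3, went from 7.23, 5.77, 5.39 and 4.22 CPM to 1824, 1506, 1325, 1683 and 1219 CPM (8.06 ± 0.26, FDR 4.2e-08). Msr1, a scavenger receptor for modified lipoproteins, went from 1.2, 1.69, 0.62 and 0.881 CPM to 332.8, 279.6, 228.2, 372.5 and 236.2 CPM (8.04 ± 0.37). Gpnmb, a membrane glycoprotein of lysosome-rich macrophages, showed more spread at 2 d, with 3075, 750.1, 1756, 1079 and 1739 CPM against 5.79 to 7.41 CPM (7.98 ± 0.48). The lowest values of Gpnmb and Spp1 at 2 d were in library 2. Ctsd, the lysosomal protease cathepsin D, took the most reads of the list, with 14082 to 24469 CPM against 526.2 to 565.8 CPM (5.14 ± 0.23).

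Genes that carry lipid or mark lipid-laden macrophages were also among the 10 with the largest rises in the whole comparison. Apoc2, an apolipoprotein that activates lipoprotein lipase, had at most 0.277 CPM in uninjured libraries and 133.9 CPM or more in each 2 d library (9.80 ± 0.34, FDR 4.7e-08). Apoc4, its neighbour in the Apoe gene cluster, went from 0.0189 to 0.0668 CPM up to 13.9 to 37.3 CPM (9.13 ± 0.50). Cd5l, a secreted protein of tissue macrophages, went from 0.0483 to 0.171 CPM up to 41.3 to 86.9 CPM (8.97 ± 0.42). Saa3, an acute-phase serum amyloid A protein, had 103.4, 136.0, 53.5, 360.6 and 79.7 CPM at 2 d against at most 0.652 CPM (9.03 ± 0.89), with library 4 far above the rest. The other genes of that group of 10 were Mmp12, F7, Mmp3, Col10a1 and the 2 Y-linked genes Ddx3y and Eif2s3y.

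Myeloid receptors rose, but not all alike. Fcer1g, the signalling chain of Fc receptors, went from 21.1 to 28.9 CPM up to 555.1 to 1025 CPM (4.98 ± 0.24), and Cybb, the core of the phagocyte oxidase, from 1.57 to 3.57 CPM up to 44.6 to 73.2 CPM (4.74 ± 0.28). Laptm5, a lysosomal membrane protein of leukocytes, had 2218 and 2471 CPM in 2 d libraries 2 and 4 and 811.6 to 976.2 CPM in the other 3, against 49.9 to 65.3 CPM in uninjured cord (4.68 ± 0.42). Csf1r, the receptor for the growth factor that microglia and macrophages need, was the one pan-myeloid marker that was not called. It had 96.9, 117.9, 110.0 and 101.5 CPM in uninjured libraries and 135.8, 51.4, 142.5, 70.9 and 103.9 CPM at 2 d (-0.08, FDR 0.81), and the groups overlapped. Among macrophage markers, Ms4a7 went from 0.758 to 1.31 CPM up to 62.7 to 121.1 CPM (6.38 ± 0.29). Arg1, the enzyme arginase-1, went from 0.644 to 1.06 CPM up to 33.7 to 146.4 CPM (6.79 ± 0.47), and Fn1, fibronectin, from 23.5 to 82.8 CPM up to 235.4 to 781.4 CPM (3.31 ± 0.47). Of the markers of homeostatic microglia, Fcrls, Cx3cr1, Tmem119 and P2ry13 rose and Sall1 fell. Sall1, a transcription factor that astrocyte-lineage cells also express, went from 29 to 44.9 CPM down to 15.9 to 27.5 CPM (-0.71 ± 0.20, FDR 0.0086). The call of Sall1 was lost with the male controls (FDR 0.029) and with the offsets for exon length and GC content (0.073).

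Most complement and pattern receptor genes rose as well. Of 26 complement genes tested 17 rose and only Masp1 fell, and the summed CPM went from 491.9 to 628.6 up to 6904 to 10646. C1qa, a chain of the first complement component, had 142.6, 126.7, 113.6 and 113.3 CPM in uninjured libraries and 3659, 5339, 4278, 6513 and 3820 CPM at 2 d (5.25 ± 0.24, FDR 7.3e-08). The receptors C5ar1 and C3ar1, which sense the split products of complement, had 138.6 to 227.0 CPM and 165.4 to 244.3 CPM at 2 d against at most 3.77 CPM in any uninjured library. Masp1 fell from 7.66 to 9.25 CPM to between 0 and 2.61 CPM (-3.10 ± 0.86, FDR 0.0087), a call lost with the male controls (FDR 0.021) and with the offsets for exon length and GC content (0.016). Of 21 Toll-like receptors and adaptors 19 rose and none fell (median 2.90). Tlr13, a sensor of bacterial ribosomal RNA, went from 2.25 to 3.16 CPM up to 53.1 to 80.7 CPM, and Unc93b1, which carries such receptors to endosomes, from 26.7 to 34.9 CPM up to 245.9 to 306.1 CPM. Of 17 inflammasome genes 13 rose and Gsdme fell, and Pycard, the adaptor ASC, went from 2.54 to 3.92 CPM up to 64.8 to 93.1 CPM (4.61 ± 0.21). Mefv, the gene of pyrin, had 2 counts in the 4 uninjured libraries together and 1.08 to 4.73 CPM at 2 d, a ratio of 556.6 with a counting interval of 153.6 to 4604.

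Among 24 chemokines 13 rose and only Cx3cl1, the membrane-bound chemokine of neurons, fell. Ccl4, a chemokine that attracts monocytes, had 52.0, 38.7, 38.5, 37 and 33.6 CPM at 2 d and at most 0.515 CPM in uninjured libraries (7.47 ± 0.63, FDR 2.6e-06). Ccl7 went from 0.246 to 0.532 CPM up to 25.8 to 98.1 CPM (7.24 ± 0.47). Cx3cl1 fell by 1.89 ± 0.13 on the log2 scale. Of 16 chemokine receptors 12 rose, and Cxcr4, the receptor of Cxcl12, had 102.6 to 246.1 CPM against 1.84 to 2.55 CPM (6.09 ± 0.35). Ackr1, a decoy receptor of venules and red cells, was the one receptor that fell (-1.06 ± 0.19), and it lost its call with the male controls (FDR 0.016). Of 24 interleukin and TNF family cytokines 10 rose and none fell, and 16 rose without 2 d libraries 2 and 4. Il1rn, the antagonist of interleukin-1, had 54.7, 26, 31.5, 53.5 and 38.2 CPM at 2 d against at most 0.220 CPM (8.38 ± 0.47, FDR 1.8e-07). Tnf reached only 2.79 to 7.59 CPM against at most 0.0644 CPM (7.35 ± 0.95), and Il33, an alarmin of astrocytes and oligodendrocytes, took the most reads of the list, with 114.7 to 160.0 CPM against 61.6 to 89.5 CPM (0.90 ± 0.15). Of 25 receptors of these cytokines 19 rose and none fell (median 2.50), with Tnfrsf1b at 85.4 to 171.8 CPM against 5.59 to 7.51 CPM. Of 19 genes of leukocyte adhesion and transmigration 13 rose and Cd99l2 fell, and Cd44, the hyaluronan receptor, went from 5.13 to 9.59 CPM up to 103.2 to 295.7 CPM (4.46 ± 0.40).

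Interferon-stimulated genes rose in 26 of 28 cases and none fell (median 2.31), and their summed CPM went from 174.4 to 259.3 up to a highest value of 1431, 5.72-fold in the mean. Bst2, tetherin, which holds budding viruses at the cell surface, had 10.5, 14.3, 8.58 and 7.93 CPM in uninjured libraries and 244.9, 465.4, 289.1, 460.2 and 382.3 CPM at 2 d (5.16 ± 0.29, FDR 2.0e-07). Zbp1, a sensor of Z-form nucleic acid, went from 0.370 to 1.75 CPM up to 20.9 to 46.6 CPM (5.15 ± 0.51). Rsad2, viperin, had 13.3, 33.6, 15.4, 84.8 and 36.7 CPM at 2 d against 1.03 to 2.55 CPM (4.36 ± 0.63), a wide spread at 2 d without overlap of the groups. The promoters of 20 members were held in the RefSeq tables of build GRCm38.p6, from 250 bases before to 50 after the start, and 13 of them (65%) contained GAAANNGAA on either strand, a core of interferon-stimulated response elements, against 9.76% of the promoters of 27025 genes. All 13 of these genes rose. The promoters of Bst2, on the minus strand of chr8:71537423-71537722, and Rsad2, on the minus strand of chr12:26456403-26456702, are shown as the matching members with the largest changes, with the match in capitals. In Bst2, 2 matches overlap. A match describes letters only and is no evidence of a bound factor.
Bst2: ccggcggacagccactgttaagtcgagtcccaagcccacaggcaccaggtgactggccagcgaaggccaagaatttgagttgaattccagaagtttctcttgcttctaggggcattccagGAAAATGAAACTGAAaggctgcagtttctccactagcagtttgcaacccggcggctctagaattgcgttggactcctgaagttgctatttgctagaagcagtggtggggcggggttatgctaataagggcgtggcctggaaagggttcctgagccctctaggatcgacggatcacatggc
Rsad2: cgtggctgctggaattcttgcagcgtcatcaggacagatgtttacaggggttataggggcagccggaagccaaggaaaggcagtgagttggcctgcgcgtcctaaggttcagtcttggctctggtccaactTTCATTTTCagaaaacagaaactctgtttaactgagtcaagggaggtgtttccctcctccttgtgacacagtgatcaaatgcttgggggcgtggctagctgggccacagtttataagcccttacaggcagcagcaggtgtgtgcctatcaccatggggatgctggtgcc

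Matrix genes formed the second large rise. Of 30 genes of provisional and basement membrane matrix 25 rose and none fell (median 3.31), and the summed CPM went from 1160 to 1821 up to 22720 to 38086, of which Spp1, also on this list, took the most reads. Col1a1, a chain of fibrillar collagen I, had 201.5, 213.0, 164.3 and 100.1 CPM in uninjured libraries and 5152, 1581, 3080, 726.5 and 4059 CPM at 2 d (4.11 ± 0.57, FDR 9.1e-05). Col3a1 of collagen III had 1966, 318.9, 877.2, 163.3 and 1425 CPM at 2 d against 37.3 to 110.7 CPM (3.62 ± 0.72). Libraries 2 and 4 were the lowest of the 2 d libraries for both collagens, and still above every uninjured library. Postn, periostin of scar-forming stromal cells, had 234.9, 127.9, 169.6, 30.3 and 388.8 CPM at 2 d against 2.01 to 3.13 CPM (6.31 ± 0.69). Col10a1, a short-chain collagen best known from growth cartilage, had 50.6, 13.7, 30.3, 10.9 and 16.3 CPM at 2 d against at most 0.0805 CPM (9.05 ± 0.80). Fibroblast and meningeal markers rose in 7 of 10 cases, with sums of 2566 to 11148 CPM against 421.1 to 934.8 CPM.

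Of 24 matrix metalloproteinases and their inhibitors 17 rose and Mmp15, Mmp17 and Mmp24 fell. Mmp12, macrophage elastase, had the largest log2 fold change after Ddx3y among the genes named by size of change, with 0.330, 0.0483, 0.0191 and 0.0189 CPM in uninjured libraries and 227.3, 129.8, 138.6, 154.6 and 156.5 CPM at 2 d (10.58 ± 0.73, FDR 6.4e-07). Mmp3, stromelysin-1, had 87.4, 25.8, 13.3, 160.3 and 38.5 CPM at 2 d against at most 0.239 CPM (9.17 ± 1.08). Mmp14, a membrane-bound protease that activates other members, went from 43.7, 43.8, 38.4 and 32.4 CPM to 2375, 3087, 2183, 1726 and 1872 CPM (5.83 ± 0.24). For all 3, every 2 d library was above every uninjured one. Timp1 was chosen after its values were seen, as the inhibitor of these enzymes with the clearest rise, from 2.56 to 4.01 CPM up to 351.0 to 911.3 CPM (7.53 ± 0.36). Timp2, which took the most reads of the list over all 9 libraries, rose less (1.24 on the log2 scale). Mmp24, a membrane-type member known from neurons, fell from 23.4, 29.1, 33.2 and 28.8 CPM to 0.593, 0, 1.07, 2.08 and 0.0264 CPM (-5.24 ± 0.95, FDR 0.00065).

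Clotting and vessel genes followed. Of 22 genes of coagulation and fibrinolysis 18 rose, and the summed CPM went from 337.7 to 472.5 up to 2291 to 2718. F7, the gene of coagulation factor VII, which liver makes and macrophages can express, had 40, 14.5, 22.7, 26.4 and 29.8 CPM at 2 d against at most 0.114 CPM (9.45 ± 0.74). Anxa2, a cofactor of plasmin formation, took the most reads of the list and rose by 3.57 ± 0.23. The one member called lower was Plg, plasminogen, which had no counts at 2 d and 0.134 to 0.341 CPM before, at least 22.4-fold lower, a call lost with a replicate block (FDR 0.084). Endothelial markers rose in 4 of 10 cases (Cldn5, Emcn, Pecam1 and Abcb1a), with Cldn5, a tight junction protein of the blood-spinal cord barrier, at 69.0, 67.2, 68.1 and 74.9 CPM in uninjured libraries and 208.9, 329.4, 219.8, 308.3 and 222.9 CPM at 2 d (1.89 ± 0.17). Slco1a4, an organic anion carrier of barrier endothelium, was the one that fell (-2.08). Of 23 genes of tight junctions and barrier transport 9 rose and 5 fell, against 26.6% and 26.4% of all genes. Those that fell were Ocln, Slc2a1, Slco1a4, Slco1c1 and Spock2. Slc2a1, the glucose carrier of the barrier, went from 48.1, 65.7, 68.3 and 60.4 CPM to 8.73, 1.79, 2.77, 0.470 and 3.65 CPM (-4.11 ± 0.63, FDR 0.00019). Mural cell markers rose in 5 of 10 cases (Pdgfrb, Rgs5, Cspg4, Acta2 and Tagln), and Acta2, smooth muscle actin, had 274.1 to 821.1 CPM at 2 d against 12.9 to 23.9 CPM (4.66 ± 0.41).

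**Figure D2:**
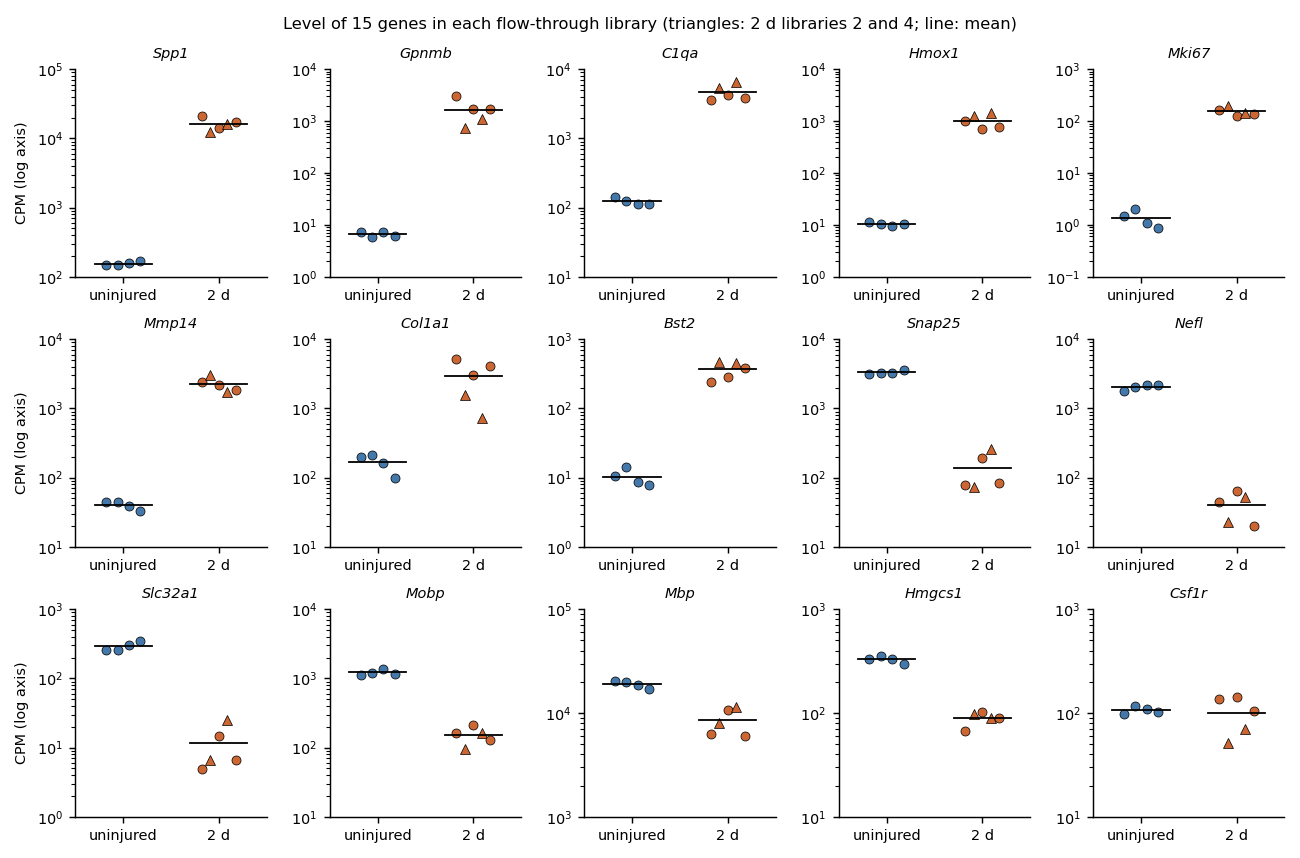
CPM (log axes) of 15 genes in each of the 4 uninjured and 5 2 d flow-through libraries, with lines for group means and triangles for 2 d libraries 2 and 4. Spp1 lies at 12285 CPM or more in every 2 d library and at 167.2 CPM or less in every uninjured one, Snap25 at 263.5 CPM or less against 3167 CPM or more, and Csf1r overlaps.

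Genes of DNA replication and mitosis rose in 31 of 35 cases and none fell (median 3.35), with summed CPM of 239.6 to 253.2 in uninjured libraries and 1591 to 2024 at 2 d. Mki67, a nuclear protein of dividing cells, had 1.46, 2.02, 1.1 and 0.881 CPM in uninjured libraries and 163.2, 200.3, 123.6, 143.5 and 139.1 CPM at 2 d (6.81 ± 0.31, FDR 7.0e-08). Ccna2, the cyclin of S phase, had 54.9 to 104.1 CPM against 0.625 to 1.15 CPM (6.15 ± 0.29), and Ccnd1, the cyclin of entry into the cycle, took the most reads, with 303.7 to 409.2 CPM against 66.3 to 75.1 CPM (2.34 ± 0.13). Cytosolic ribosomal protein genes, whose reads can be shared with near-identical copies elsewhere in the genome, were higher in 40 of 46 cases (median 1.70), with summed CPM of 40403 to 52506 against 10772 to 14359. They are short genes, and the fifth of genes with the shortest exons had a median of 0.45 by itself. Of 28 p53 targets and apoptosis genes 22 rose and only Zmat3 fell, and Pmaip1, the apoptosis inducer Noxa, rose by 3.55 ± 0.24.

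Stress genes were split within their lists. Of 30 genes of metallothioneins, heme breakdown, iron and antioxidant defence 17 rose and Hmox2, Fth1, Gclc and Sod2 fell, and the summed CPM overlapped between groups. Hmox1, the inducible enzyme that opens the heme ring, went from 11.4, 10.3, 9.55 and 10.3 CPM to 991.6, 1247, 697.7, 1420 and 784.5 CPM (6.63 ± 0.28, FDR 6.8e-08). Its constitutive relative Hmox2 fell from 90.5 to 107.5 CPM to between 11.5 and 64.8 CPM (-1.64 ± 0.46). The 2 chains of ferritin, the iron store, which both have processed copies that can share reads, moved in opposite directions. Fth1 went from 13308, 12509, 13475 and 12278 CPM to 3547, 924.5, 1916, 1290 and 1853 CPM (-2.76 ± 0.34), and Ftl1, named after its values were seen, from 213.1 to 262.9 CPM up to 934.5 to 6558 CPM (3.74 ± 0.57). The motif TGACNNNGC, the core of antioxidant response elements, was found in 8 of 24 promoters of this list (33.3%) and in 14.0% of all promoters. Of these 8 genes 3 rose and none fell. Prdx1, a peroxiredoxin, went from 127.6 to 156.4 CPM up to 941.1 to 1450 CPM (3.07 ± 0.19), and Mt2, a zinc-binding metallothionein, from 140.4 to 214.5 CPM up to 890.5 to 2597 CPM (3.06 ± 0.34). Their promoters, on the plus strands of chr4:116685349-116685648 and chr8:94172368-94172667 (GRCm38.p6), are shown as the matching members with the largest changes, with the match in capitals.
Prdx1: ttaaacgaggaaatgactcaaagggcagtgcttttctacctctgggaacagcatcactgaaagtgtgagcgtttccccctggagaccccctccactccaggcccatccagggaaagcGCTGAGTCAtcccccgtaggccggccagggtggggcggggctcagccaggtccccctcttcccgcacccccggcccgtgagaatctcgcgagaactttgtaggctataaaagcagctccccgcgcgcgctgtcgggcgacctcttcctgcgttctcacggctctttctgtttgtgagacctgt
Mt2: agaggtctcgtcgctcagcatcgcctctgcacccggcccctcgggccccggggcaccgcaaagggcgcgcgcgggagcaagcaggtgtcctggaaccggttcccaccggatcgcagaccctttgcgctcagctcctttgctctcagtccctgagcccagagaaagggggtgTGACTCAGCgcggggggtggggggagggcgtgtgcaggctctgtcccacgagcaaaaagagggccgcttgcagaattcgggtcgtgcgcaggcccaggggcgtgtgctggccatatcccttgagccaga

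Heat shock genes went both ways, with 8 of 29 higher and 12 lower and a median of -0.05, close to that of all genes. Hsp90b1, the chaperone of the endoplasmic reticulum, rose from 388.1 to 439.4 CPM to between 1195 and 1898 CPM (1.80 ± 0.18). Hsp90ab1, which took the most reads of the list, overlapped between groups (0.24, FDR 0.17). Hspa12a, a divergent member of the 70 kDa family that is high in brain, fell by 3.92 ± 0.33, and Hspa4l by 2.74. Hspe1, the mitochondrial co-chaperonin, had 65.7, 55.5, 55.1 and 67.5 CPM in uninjured libraries and 166.0, 219.0, 163.6, 200.7 and 204.7 CPM at 2 d (1.65 ± 0.13). Hsph1, a cytosolic exchange factor of the 70 kDa chaperones, went the other way, from 276.3, 283.3, 323.7 and 322.5 CPM to 70.5, 55.3, 68.1, 65.8 and 63.6 CPM (-2.22 ± 0.11). The promoters of both held the heat shock element core GAANNTTC, as did 11 of 21 promoters of the list (52.4%) against 9.04% of all promoters, and of those 11 genes 5 rose and 2 fell. The 2 promoters, Hspe1 on the plus strand of chr1:55087898-55088197 and Hsph1 on the minus strand of chr5:149636266-149636565, are shown as the matching members with the largest changes. The 2 genes differ in direction, and the match of Hsph1 lies after the start.
Hspe1: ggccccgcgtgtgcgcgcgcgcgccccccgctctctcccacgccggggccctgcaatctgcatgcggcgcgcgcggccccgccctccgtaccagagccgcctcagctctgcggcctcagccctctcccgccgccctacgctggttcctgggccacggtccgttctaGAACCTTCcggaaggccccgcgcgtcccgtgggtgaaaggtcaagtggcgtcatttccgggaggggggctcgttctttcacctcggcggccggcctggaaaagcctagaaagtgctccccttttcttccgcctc
Hsph1: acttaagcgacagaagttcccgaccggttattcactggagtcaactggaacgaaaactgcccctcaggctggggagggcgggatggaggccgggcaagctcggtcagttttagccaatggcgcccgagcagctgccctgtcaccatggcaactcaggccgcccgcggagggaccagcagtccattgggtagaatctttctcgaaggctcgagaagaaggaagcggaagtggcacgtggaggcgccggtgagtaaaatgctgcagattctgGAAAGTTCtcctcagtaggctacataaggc

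Of 25 genes of the integrated stress and unfolded protein responses 9 rose and 6 fell (median 0.12), against 26.6% and 26.4% of all genes. Atf3, a stress-induced transcription factor, had 102.5, 68.8, 71.9, 84.1 and 80.8 CPM at 2 d against 0.881 to 1.67 CPM (5.91 ± 0.25), and Gdf15, a secreted stress factor, 16.8 to 31.7 CPM against 0.0758 to 0.578 CPM (6.22 ± 0.53). Hspa5, the chaperone BiP, took the most reads of the list, with 597.5 to 1073 CPM against 243.7 to 277.2 CPM (1.51 ± 0.18), and Sesn2 fell by 3.80 ± 0.92. Immediate early genes rose in 13 of 24 cases and fell in 4, namely Egr3, Egr4, Arc and Nr4a3, which are known as activity-dependent genes of neurons. Arc fell by 3.17 ± 0.32, and Egr3 had no counts at 2 d, at least 211.3-fold lower. Jund took the most reads of the list and rose by 1.32 ± 0.30.

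Genes of energy metabolism and sterol synthesis were more often lower than higher, while of all genes tested 26.4% were lower and 26.6% higher. Of 31 genes of glycolysis and the hypoxia response 14 fell and 7 rose, and the summed CPM was 4640 to 5194 at 2 d against 8580 to 10361. Aldoa, an enzyme of glycolysis, went from 1976, 1756, 2091 and 2211 CPM to 962.0, 687.9, 824.4, 588.5 and 758.1 CPM (-1.39 ± 0.16), while Hk3, the hexokinase of myeloid cells, rose by 4.70 and Slc16a3, a lactate exporter, by 4.52 ± 0.17. Of 40 respiratory chain subunits 20 fell and 7 rose, and with offsets for exon length and GC content 27 fell and 1 rose. Atp5b, the catalytic subunit of ATP synthase, fell from 1304 to 1569 CPM to between 116.2 and 390.2 CPM (-2.54 ± 0.33), with libraries 2 and 4 the lowest. Of 25 genes of cholesterol synthesis 22 fell and only Ebp rose (median -1.55), and the summed CPM was 626.2 to 926.1 against 2131 to 2284, 2.74-fold lower. Hmgcs1, which makes HMG-CoA, went from 297.6 to 356.5 CPM in uninjured libraries to 67.5, 97.6, 102.3, 89.5 and 90.2 CPM (-1.88 ± 0.14). Ebp, a sterol isomerase, rose from 37.6 to 42.3 CPM to between 67.6 and 123.2 CPM (1.11 ± 0.19). The sterol response element core TCACNCCAC was found in only 1 of 17 promoters of the list (5.88%, against 1.44% of all promoters), that of Hmgcs1 on the plus strand of chr13:119690101-119690400 (GRCm38.p6), with the match in capitals.
Hmgcs1: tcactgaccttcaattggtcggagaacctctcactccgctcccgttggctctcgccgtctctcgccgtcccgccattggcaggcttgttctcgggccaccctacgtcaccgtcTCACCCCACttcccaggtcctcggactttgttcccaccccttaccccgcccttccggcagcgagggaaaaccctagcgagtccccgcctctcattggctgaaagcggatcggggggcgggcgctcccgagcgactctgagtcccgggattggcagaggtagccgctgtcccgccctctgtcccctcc

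The lists with the lowest medians were those of neurons. All 30 genes of synaptic vesicles and release fell (median -3.09), and their summed CPM went from 16340 to 18530 down to 1006 to 2684, 10.4-fold lower. Snap25, a membrane fusion protein of nerve endings, had 3167, 3267, 3215 and 3626 CPM in uninjured libraries and 77.5, 73.1, 191.9, 263.5 and 83.8 CPM at 2 d (-4.59 ± 0.42, FDR 4.8e-06), 24.1-fold lower. Rims1, a scaffold of the release site, was at 0 in 3 of 5 2 d libraries and had 11.7 to 24.6 CPM before (-7.64 ± 0.91). All 2 d libraries were thus below all uninjured ones, with libraries 3 and 4 the highest of the 5 for Snap25.

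Axonal and membrane genes fell with them. Of 27 genes of the axonal cytoskeleton and transport 24 fell and none rose (median -2.27). Nefl, the light neurofilament chain, had 1779, 2032, 2156 and 2219 CPM in uninjured libraries and 44.2, 23.1, 64.3, 52.3 and 19.8 CPM at 2 d (-5.65 ± 0.37, FDR 4.9e-07). Ina, alpha-internexin, fell from 141.9 to 243.3 CPM to between 0.579 and 4.49 CPM (-6.95 ± 0.58), while Tubb4a, a tubulin that oligodendrocytes also make, fell by 1.33. Of 29 voltage-gated sodium and potassium channel genes 25 fell and none rose (median -3.03). The 10 genes named for the lowest log2 fold changes were close to 0 at 2 d, with at most 1.06 CPM in any 2 d library. Among them were Xist, Gabbr2, Grm4, Hcn4, Mafa, Pcdhac2, Rell2, Rimbp2 and Snrpn. Grm4, a presynaptic glutamate receptor, had 14.7, 26.1, 31.6 and 26.1 CPM before, 0.0868 CPM in 2 d library 1 and no counts in the other 4. Pcdhac2, a clustered protocadherin of neurons, had no counts at 2 d and was at least 666-fold lower, and Snrpn, whose reads can be shared with the overlapping Snurf, at least 513.8-fold lower. Hcn4, a pacemaker channel, had 2 counts at 2 d, a ratio of 1009 with a counting interval of 279.2 to 8338.

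Most genes of glutamate, GABA and glycine transmission fell. Of 28 ionotropic glutamate receptor and postsynaptic density genes 23 fell and none rose (median -2.82), and Dlg4, the scaffold PSD-95, went from 506.6 to 566.2 CPM down to 67.8 to 182.9 CPM (-2.30). Of 26 genes of GABA and glycine transmission 22 fell and none rose (median -3.12). Gabbr2, a subunit of the metabotropic GABA receptor, had 46.5, 86.1, 102.6 and 83.1 CPM in uninjured libraries and 0.333, 0.0541, 0.117, 0 and 0.316 CPM at 2 d (-8.79 ± 0.61, FDR 6.5e-07). Its partner subunit Gabbr1, which took the most reads of the list, fell by 2.57. Both subunits are needed for a working receptor in neurons, and the levels of both were below those of uninjured cord in all 5 libraries.

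Markers of each class of spinal neuron listed here fell. All 8 markers of inhibitory interneurons fell (median -4.17), with Slc32a1, the vesicular carrier of GABA and glycine, at 256.3, 253.8, 306.6 and 349.3 CPM in uninjured libraries and 4.98, 6.58, 14.6, 24.7 and 6.62 CPM at 2 d (-4.66 ± 0.47). All 8 markers of excitatory interneurons fell (median -4.14), with Slc17a6, a vesicular glutamate carrier, at 5.62, 13.8, 14.9, 30.2 and 8.43 CPM against 105.1 to 124.4 CPM (-3.00 ± 0.41). Of 8 motor neuron markers 7 fell (median -2.72), and Slc18a3, the vesicular carrier of acetylcholine, went from 80.2, 86.7, 88.2 and 88.2 CPM to 2.65, 4.19, 3.17, 2.97 and 1.83 CPM (-4.86 ± 0.22). The medians of these classes were not tested against each other. Of 20 neuropeptides 13 fell and Gal rose. Gal, galanin, which injured neurons are known to induce, went from 14.9, 12.0, 11.7 and 13.3 CPM to 37, 37.3, 26.8, 58.5 and 26.7 CPM (1.52 ± 0.24, FDR 0.00024), the one neuropeptide called higher, whereas Pdyn, prodynorphin, had no counts at 2 d and was at least 495.6-fold lower.

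Regeneration-associated genes and growth factors were split. Of 23 regeneration-associated genes 11 rose and 5 fell, namely Gap43, Stmn2, Tubb3, Basp1 and Csrp1. Sprr1a, a small proline-rich protein that injured neurons induce, went from 0.286 to 0.620 CPM up to 43.5 to 87.7 CPM (7.09 ± 0.35). Gap43, a growth cone protein, fell by 1.26 ± 0.27 and Basp1, its functional relative, by 2.48 ± 0.43. Of 30 growth and neurotrophic factors 13 rose and 6 fell. Igf1, an insulin-like growth factor made by macrophages and other cells, had 41.6, 46.6, 36.7 and 18.1 CPM in uninjured libraries and 780.9, 822.6, 659.9, 598.6 and 584.4 CPM at 2 d (4.27 ± 0.29, FDR 5.8e-07), Angptl4 rose by 5.05, and Fgf9, a growth factor of neurons, fell by 3.80. Of 20 chondroitin sulfate proteoglycans and myelin growth inhibitors 9 fell and 4 rose, namely Ncan, Vcan, Cspg4 and Dcn. Cspg4, the proteoglycan NG2 of progenitors and pericytes, went from 18.2 to 19.1 CPM up to 153.1 to 278.5 CPM (3.41 ± 0.22), while Lingo1, a receptor partner for myelin inhibitors, went from 69.7 to 94 CPM down to 2.86 to 6.56 CPM (-4.16 ± 0.25).

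Myelin genes fell unequally. Of 25 myelin lipid and membrane genes 20 fell and none rose (median -0.91), with summed CPM of 13763 to 21912 against 33177 to 36845. Mbp, myelin basic protein, had 20294, 19717, 18510 and 16883 CPM in uninjured libraries and 6286, 7924, 10803, 11393 and 6001 CPM at 2 d (-1.15 ± 0.23, FDR 0.0011), a call lost with a replicate block (FDR 0.013). Mobp, a protein of compact myelin whose mRNA is carried into the processes, fell further, from 1134, 1208, 1390 and 1154 CPM to 163.4, 96.6, 214.2, 159.9 and 126.8 CPM (-3.01 ± 0.22, FDR 8.6e-07). Mal, a proteolipid of myelin, fell by 2.93 ± 0.25 and Mag, a glycoprotein of the inner myelin face, by 0.84 ± 0.17. The other oligodendrocyte marker, Cldn11, the tight junction protein of myelin, was not called, at 780.9 to 1067 CPM against 690.9 to 756.5 CPM (0.41, FDR 0.016). Of 8 oligodendrocyte precursor (OPC) markers Pdgfra, Cspg4, C1ql1 and Vcan rose and Ptprz1 fell, and the sum rose from 212.3 to 267.5 CPM to between 506.8 and 589.7 CPM. Of these, Pdgfra is also made by fibroblasts, Cspg4 by pericytes and Vcan by macrophages, and those lists rose too, so which cells hold the RNA cannot be told apart.

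**Figure D3:**
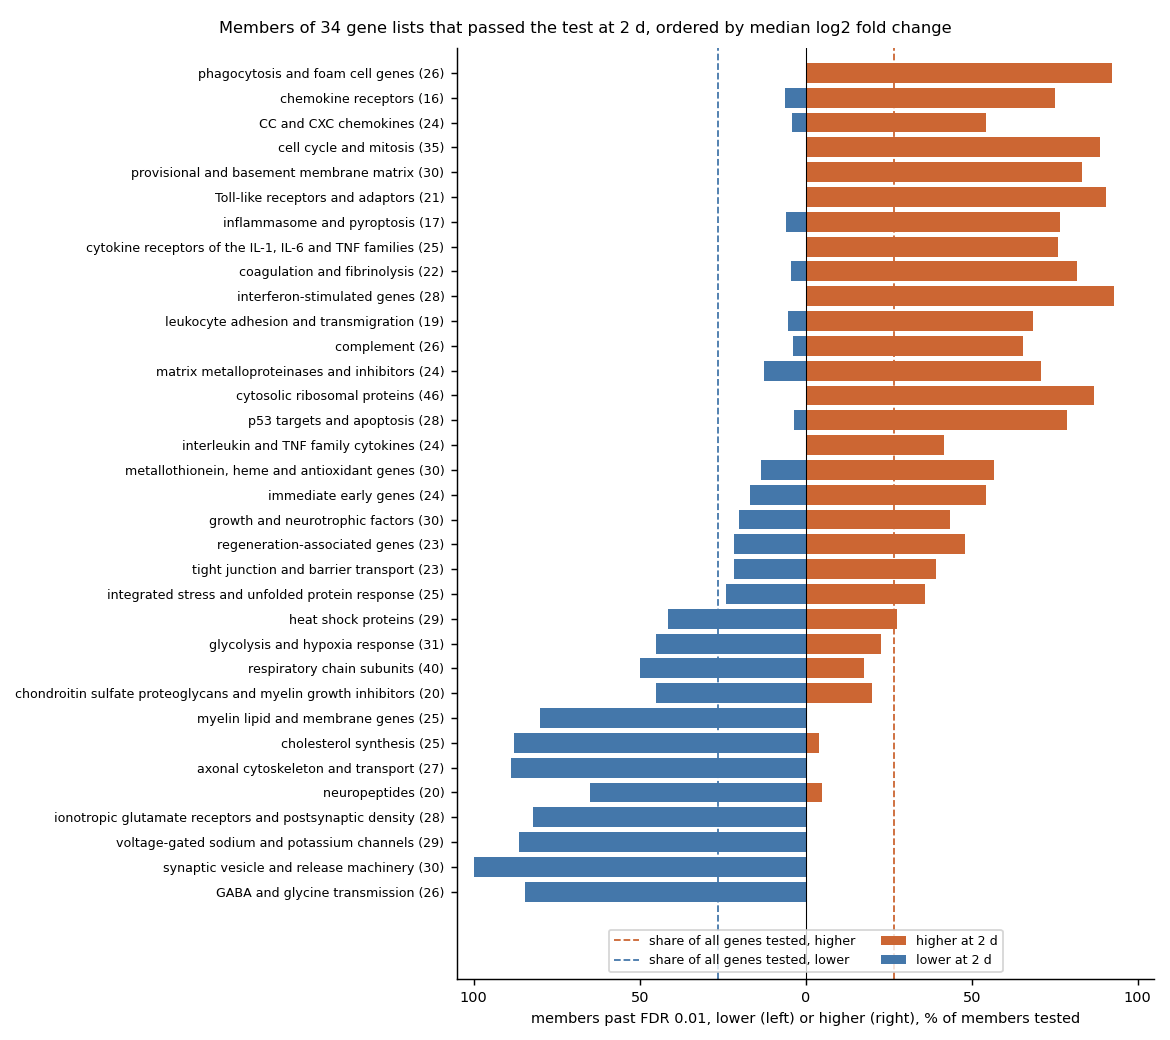
Share of tested members (percent, horizontal axis) of 34 gene lists that were higher or lower at 2 d than in uninjured flow-through at FDR under 0.01, ordered by median log2 fold change. Dashed lines mark the shares among all genes, 26.6% higher and 26.4% lower; phagocytosis, cell cycle and interferon lists lie far above the first and the synaptic, channel, axonal and cholesterol lists far above the second.

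To place the 2 d values in time, they were set against 5 d after SCI, in a fit of all 29 flow-through libraries of the time course, whose own scaling shifts CPM slightly from those above. Of 19207 genes 3501 (18.2%) were higher and 4495 (23.4%) lower at 2 d than at 5 d (41.6% in either direction), with a median of -0.13. With the 2 d and 5 d groups fitted alone, 2333 of 17398 genes were higher and 1833 lower. The number of calls and the balance of directions thus depend on which libraries share the fit, and the list counts below are from the fit of 29. Directions also varied with base composition. In the fifth of genes with the lowest GC content 28.8% were higher and 8.93% lower at 2 d, and in the fifth with the highest 9.69% and 40.6%. With offsets for exon length and GC content, 2819 of the 3501 higher and 3594 of the 4495 lower calls were kept. The list counts below are without these offsets. All 4 libraries at 5 d held the female pattern of Xist, although 1 of them is labelled male, so sex pattern and time cannot be told apart in this contrast either. With the 4 libraries labelled as males at 5 d in place of these, 2942 genes were higher and 4039 lower at 2 d. Of the calls from the fit of 29, 2826 and 3817 were made again. Of 24 proteases and inhibitors 10 were higher at 2 d and 2 lower, and Mmp12 had 166.6 ± 40.2 CPM (SD, n = 5) at 2 d and 26.1 ± 7.77 CPM (n = 4) at 5 d (log2 difference 2.67, FDR 8.2e-07). Of 28 interferon-stimulated genes 10 were higher at 2 d and none lower, with Bst2 at 116.9 ± 24.7 CPM at 5 d (1.70) and Rsad2 at 4.30 ± 0.38 CPM (3.14 ± 0.44, FDR 1.2e-06). Of 30 matrix genes 10 were higher at 2 d and 2 lower, with a median of 0.11. Of 27 chemokines 6 were higher and none lower, of 17 chemokine receptors 6 and 1, and of 46 ribosomal proteins 17 and 5, so that most members of each list were not called higher. Among the 5 genes with the largest differences, beside Ddx3y and Eif2s3y, were Col10a1 with 1.71 CPM at 5 d (3.88, FDR 0.0001) and the genes Gm10277 (4.05) and Zfp993 (4.00).

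Other groups were lower at 2 d than at 5 d. Of 12 neuron markers 8 were lower and none higher, and Snap25 had 289.0 ± 74.6 CPM at 5 d (-1.02, FDR 0.0084). Oligodendrocyte markers were lower at 2 d in 8 of 12 cases, myelin genes in 17 of 25 and cholesterol genes in 13 of 25, with none higher. Mbp had 15725 ± 891 CPM at 5 d and Mobp 562.9 CPM. Csf1r, not called against uninjured cord, had 434.1 ± 50.5 CPM at 5 d. Of 10 microglia markers 5 were lower and 2 higher at 2 d, and of 12 macrophage markers 6 were higher and 1 lower, the latter being Arg1 with 277.2 ± 87.2 CPM at 5 d (-1.54 ± 0.28, FDR 3.6e-05). Hmox1 was at 2053 ± 481.6 CPM at 5 d (-0.95). Of 35 cell cycle genes 6 were higher and 10 lower at 2 d.

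The list sums gave the order of the time points as a description (the plot of list sums over time). Metalloproteinases summed to 6185 ± 873 CPM at 2 d (SD, n = 5), 3007 ± 286 at 5 d (n = 4) and no more than 3200 at any later time. Matrix genes were at 29572 ± 7129 CPM at 2 d and 21035 ± 1116 CPM at 5 d. Interferon-stimulated genes were at 1235 ± 195 CPM at 2 d and at most 895.3 CPM in the mean later. Cell cycle genes were about as high at 2 d as at 5 d, at 1816 ± 164 and 1964 ± 205 CPM, and phagocytosis genes were highest not at 2 d (80402 ± 10747 CPM) but at 28 and 42 d, with 95495 ± 3367 and 95234 ± 16959 CPM. Neuron markers were lowest at 2 d, at 1096 CPM in the mean, with 2336 ± 210 at 5 d and 4546 ± 2321 at 70 d against 11881 ± 684 in uninjured cord. Of 55 lists, 13 had their highest mean sum at 2 d and 14 their lowest.

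**Figure D4:**
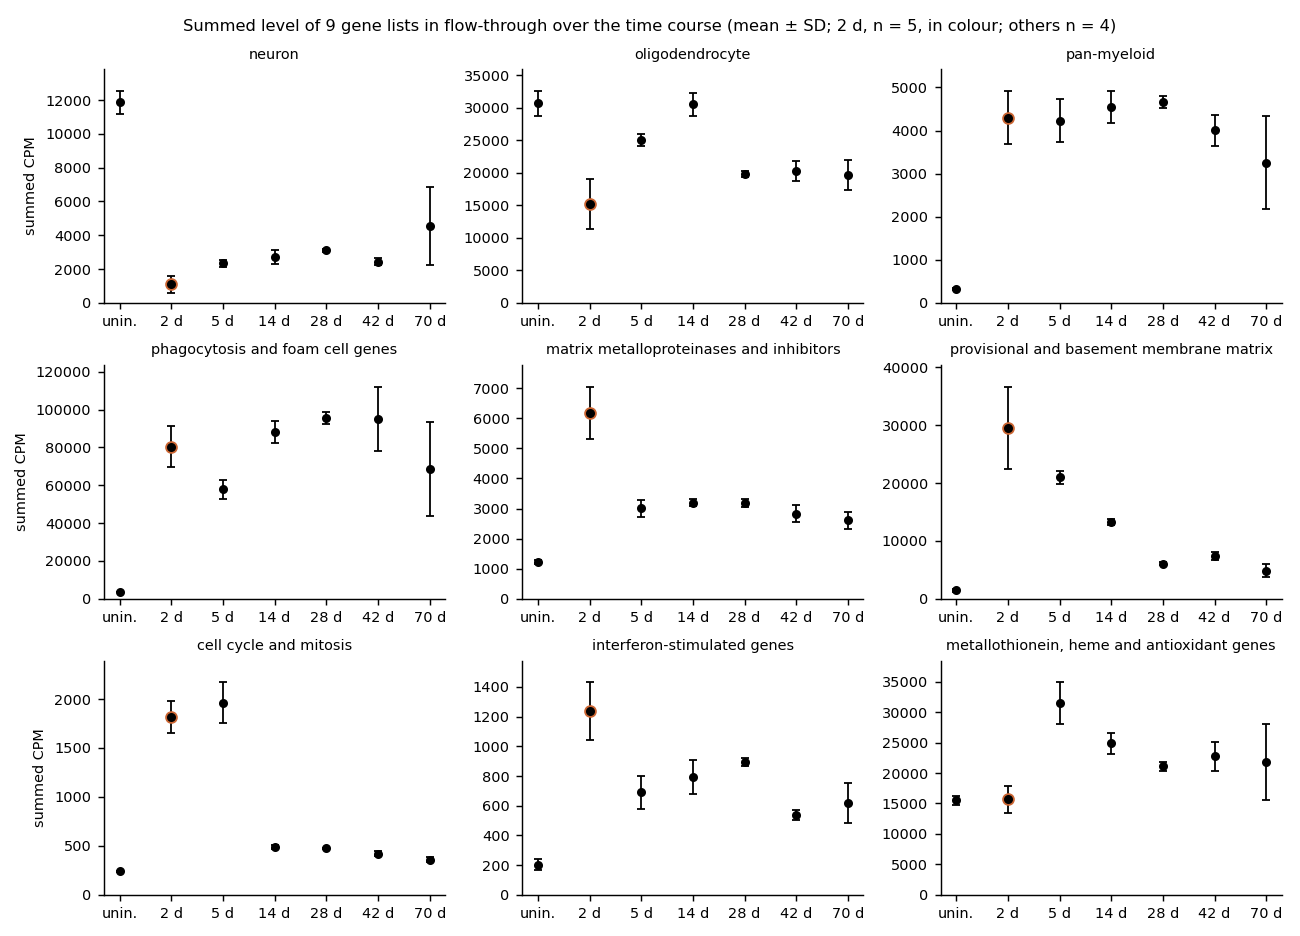
Summed CPM of 9 gene lists in flow-through RNA of uninjured cord and at each time from 2 to 70 d after SCI (n = 5 at 2 d and 4 otherwise), as mean and SD. Metalloproteinase sums are highest at 2 d (6185 ± 873 CPM), cell cycle sums are alike at 2 and 5 d, and neuron sums are lowest at 2 d (1096 CPM in the mean).

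The change in flow-through RNA was then set against the change in astrocyte libraries, in a fit of all 18 libraries with an interaction term. The fractions were distinct, since the summed astrocyte markers were 59056 ± 4163 CPM in astrocyte libraries of uninjured mice and 2485 ± 223 CPM in their flow-through (SD, n = 4). Of 18417 genes, the change was higher in flow-through for 3087 (16.8%) and lower for 4564 (24.8%, and 41.5% in either direction), with a median difference of -0.28. With the size factors of DESeq2 these counts were 3701 and 3846 and with upper quartile scaling 3787 and 3740, so the balance of directions rests on the scaling, while the shift of the median between scalings was at most 0.21. For the lists of phagocytosis and foam cell genes, matrix genes and cell cycle genes the change was mostly higher in flow-through. This held for 17 of 26 phagocytosis genes (median difference 2.00), with 2 the other way, for 20 of 30 matrix genes with 1 the other way and for 20 of 35 cell cycle genes with 3 the other way. Members of these lists could still rise in astrocyte libraries, where Spp1 went from 94.6 to 4143 CPM and Ccnd1 from 7.55 to 499.8 CPM in the mean. Apoe, the main lipid carrier of the cord, rose from 1237 to 1317 CPM up to 12214 to 22290 CPM in flow-through, while it went from 19223 to 5326 CPM in the mean in astrocyte libraries (difference 5.50, FDR 3.0e-12). Mmp14 had 341.7 and 329.4 CPM in astrocyte libraries of uninjured and 2 d cord (difference 5.79), and Mki67 had 2.72 and 8.90 CPM (5.01). Apoe was named after its values were seen.

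For other groups the change in flow-through was lower than in astrocyte libraries, or did not differ past the threshold. Timp1 had 5.19 ± 1.1 CPM (SD, n = 4) in astrocyte libraries of uninjured mice and 689.3 ± 67.8 CPM (n = 5) at 2 d, and its change did not differ from that in flow-through past the threshold (0.39 ± 0.30, FDR 0.30). For interferon-stimulated genes the change differed in 3 of 28 only, all higher in flow-through, with a median difference of 0.39. Among 12 pan-myeloid markers the change was lower in flow-through for 7 and higher for 2. Their mean summed CPM went from 309.4 to 3704 in flow-through and from 48.8 to 1351 in astrocyte libraries, so flow-through still held more of these markers at 2 d. Other leukocyte lists had the reverse order at 2 d. Markers of monocyte-derived macrophages summed to 1116 CPM in flow-through and 2776 CPM in astrocyte libraries, and neutrophil markers to 173.7 and 899.7 CPM. Arg1, a macrophage marker outside the pan-myeloid list, went from 0.448 to 1295 CPM in astrocyte libraries (-4.80, FDR 5.9e-07). For heat shock genes the change was lower in flow-through in 19 of 29 cases (median difference -1.19), and Hsph1 went from 68.2 to 200.6 CPM in astrocyte libraries while it fell in flow-through (-3.86, FDR 2.7e-12). For cholesterol genes it was lower in flow-through in 20 of 25 cases and higher in none. Gap43 went from 29.7 to 449.8 CPM in astrocyte libraries and fell in flow-through (-5.27). The change was lower in flow-through for 19 of 30 synaptic vesicle genes and 21 of 27 axonal genes, with none the other way, whereas for myelin genes the difference had a median of -0.03. The 5 genes with the largest differences each way are Aqp2, Col10a1, Actg2, Apoc4 and Fabp4, higher in flow-through, and Fosl1, Pcdhac2, Fstl3, Ifi202b and Arhgap22, lower. With numbers 1, 4 and 5 alone at 2 d, whose fractions match in sex pattern, these 10 kept their directions, and 9 of them, all but Ifi202b, their calls.

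**Figure D5:**
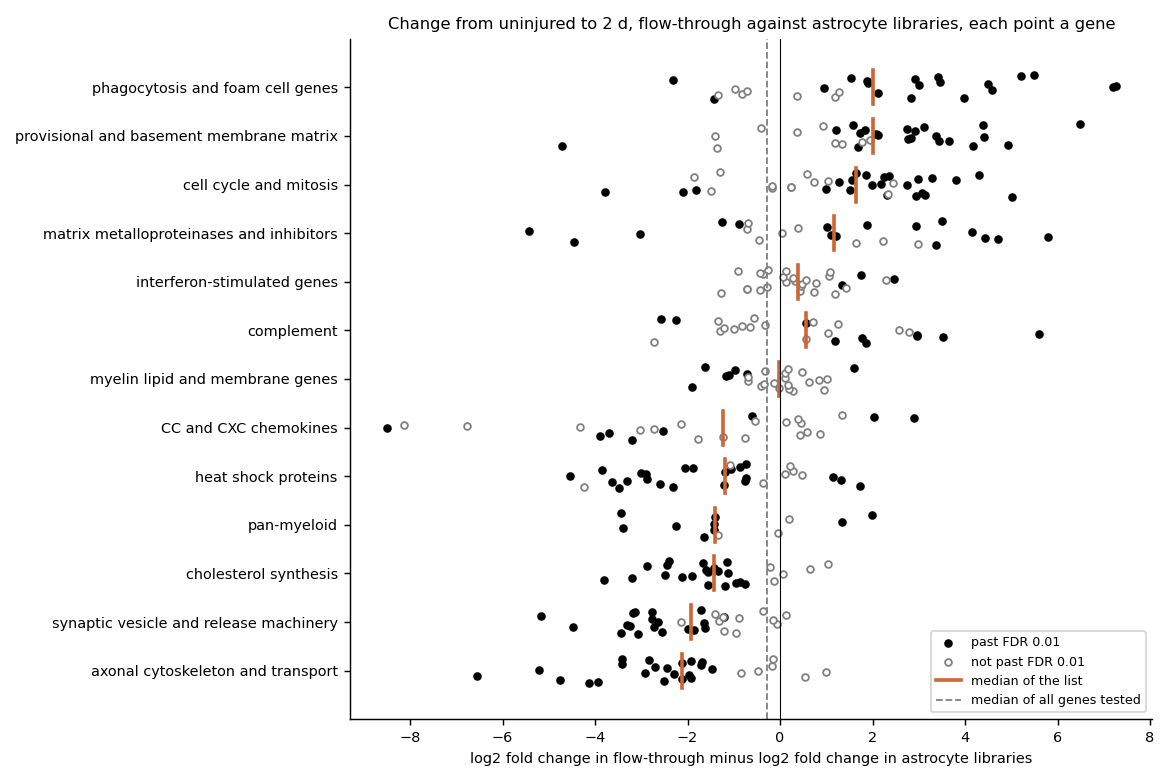
Difference of changes (log2 fold change in flow-through minus that in astrocyte libraries) for each member of 13 gene lists. Black points pass FDR 0.01, orange bars are list medians and the dashed line is the median of all genes, -0.28; phagocytosis has a median of 2.00 and cholesterol synthesis of -1.43.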

How the data were processed

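RNA-seq counts of flow-through RNA were used from 5 libraries labelled 2 d after SCI and 4 labelled uninjured, grouped by title, with further libraries for the comparisons with 5 d, with astrocyte libraries and with males. The deposited values are raw counts of reads per gene (27179 identifiers), for which the authors, per the labels and their methods, used HISAT2 against mm10 on paired reads trimmed by Trimmomatic, and featureCounts for counting, at default parameters. The strand setting of the counting is not given in the sources used here, so reads of overlapping or antisense genes cannot be told apart. Libraries were poly(A)-selected, and no molecular identifiers were used, so intervals and floors cover counting error only. No column was left unmapped.

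Names came from RefSeq annotation of GRCm38.p6 for 25275 identifiers. From the study's methods come edgeR (here 4.0.16, R 4.3.3), TMM scaling and Benjamini-Hochberg FDR under 0.01. Chosen here were filterByExpr for the genes kept and the quasi-likelihood F test (legacy fit, robust). The 2 groups were fitted alone, the contrast with 5 d in 29 flow-through libraries, and the contrast with astrocyte libraries as an interaction in 18. The tests were checked on simulated counts first. CPM values are TMM-scaled within each fit. Log2 CPM values, used for the principal components and correlations, carry a prior count of 2. Log2 fold changes are those of edgeR's fit at its default prior count. A gene without counts in a group was set against a floor of 3 counts over that group. The lowest depth was 40710428 reads.

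Described were 21 lists of cell type markers and 34 lists of processes (1121 of 1123 entries matched to an identifier), by counts and medians. Genes named are the 10 with the largest and the 10 with the lowest log2 fold change past FDR 0.01 without overlap and with at least 5 mean CPM, and for each list the member with the most reads, the 2 with the largest change and the one furthest against the majority, besides members of counts of 5 or fewer, and for the other contrasts the 5 furthest each way. Genes outside this rule, used to describe named lists or promoters, were chosen after their values were seen. Some genes that this rule names are not reported here. Motifs were searched on both strands of RefSeq promoters. The members and lists were chosen with earlier results of these data known. Alternatives were other scalings (DESeq2 1.42.0 size factors, upper quartile), filters, DESeq2's test, edgeR's newer fit, a replicate block, fits over other groups, FDR under 0.05 and leaving out each library. Added after seeing the data were fits without 2 d libraries 2 and 4, with male controls, with male libraries at 5 d, with numbers 1, 4 and 5 alone, and with offsets for exon length and GC content. Labels name no separate litters or batches, and replicates are separate mice by the study's description.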

Additional observations from a re-analysis of the deposited data

Results flagged for a closer look

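Some libraries lay far from the others of their group by Dixon's criterion, which chance alone would meet in about 1 in 20 groups; 15 of 152 groups of values did. In uninjured flow-through, library 1 was the highest for the summed CPM of immediate early genes (862.2) and of p53 targets and apoptosis genes (966.3) and for Mmp12 (0.330 CPM), library 2 for Xist (40.6 CPM) and library 4 for F7 (0.114 CPM). At 2 d, library 2 was the lowest for the sum of B and plasma cell markers (2.30 CPM) and the highest for the sums of erythrocyte markers (179.3 CPM) and of metalloproteinases and inhibitors (7511 CPM). At 2 d, library 4 was the lowest for the sum of OPC markers (506.8 CPM) and the highest for Saa3 (360.6 CPM). Library 1 was the highest at 2 d for Mmp12 (227.3 CPM), Grm4 (0.0868 CPM) and Mafa (0.145 CPM), and library 3 for Xist (0.438 CPM) and Hcn4 (0.0292 CPM), of which Grm4, Mafa, Xist and Hcn4 rest on few reads.

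The change from uninjured to 2 d differed between flow-through and astrocyte libraries, by the interaction test, most for the following genes. On the log2 scale and as flow-through minus astrocyte, the difference was 10.03 for Aqp2, a water channel, 8.87 for Col10a1, 8.04 for Actg2, an enteric actin, 7.62 for Apoc4 and 7.26 for Fabp4, a fatty acid carrier of fat cells and macrophages. It was -13.45 for Fosl1, -11.10 for Pcdhac2, -10.14 for Fstl3, -9.63 for Ifi202b and -9.20 for Arhgap22. Fosl1 had no counts in flow-through at 2 d, where it was at least 8.21-fold lower than before, and 20.3 CPM in the mean of the astrocyte libraries at 2 d. Pcdhac2 also had no counts at 2 d in flow-through, so its fitted difference depends on the default prior count of edgeR's fit. The call of Col10a1 was lost without uninjured replicate 3 (FDR 0.94) and that of Ifi202b without uninjured replicate 1 (FDR 1.0), each through a change of genes at or near 0 in a group.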

How the results depend on the processing

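Of the results for named genes, 150 kept their direction and their side of the threshold under every alternative run, and 36 did not. All counts over all genes stayed within 1.5 times the reported ones except 1 pair: with the 2 d and 5 d groups fitted alone, 2333 genes were higher and 1833 lower at 2 d, and fewer genes (17398) were tested. Leaving out 1 library at a time gave 4058 to 4784 genes higher and 3948 to 4896 lower against uninjured, 3029 to 3648 and 3992 to 4797 against 5 d, and 2657 to 3100 and 3761 to 4586 for the difference from astrocyte libraries. Direction reversed for 2 results, neither of which passed the threshold in that setting: Cox4i1 with offsets for exon length and GC content (-0.061) and Xist against male libraries at 5 d (1.25). The offsets kept 4070 of 4697 higher and 3953 of 4674 lower calls and turned 9. With the replicate block, 3704 genes were higher and 3671 lower against uninjured, 3306 and 4379 against 5 d, and, with the mouse as block, 2775 and 4321 in the interaction. Same-numbered uninjured and 2 d libraries deviated together with correlations of only -0.074 to 0.054, so the numbers do not pair them. For flow-through and astrocyte libraries of 1 number, these were 0.133 to 0.238 in uninjured mice and -0.024 to 0.063 at 2 d. Among other named genes, Cxcr2, Csrp1, Jund, Lck, Lmx1b, Selp, Treml1, Tmem212, Gabrg3, Nr4a3 and Plg lost their calls with the block, and Sesn2, Prx and Xcr1 with male controls; Penk (-1.13) passed without 2 d libraries 2 and 4. Depth limits genes without counts at 2 d to a bound.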
